A study of Mus musculus with 6 samples.

Results

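The transcripts described here are those of Trp53, which encodes p53, and of 9 genes that p53 induces or that stop cell division: Mdm2, Cdkn1a, Ccng1, Btg2, Trp53inp1, Gadd45a, Gadd45b, Gadd45g and Bax. They were found by gene symbol in the deposited expression matrix, which held all 10 among its 22851 genes, and all 10 passed the filter on low values that left 10743 genes for testing. The samples were livers of male C57BL/6J mice, an inbred strain, all of them on a high-fat diet, so that no lean liver was compared. Of the 6 libraries, 3 came from animals given vehicle (numbered 1, 2 and 4) and 3 from animals given ONX-0914 (numbered 1, 3 and 4), an inhibitor of the immunoproteasome subunit PSMB8 that was injected subcutaneously at 10 mg/kg on alternate days over 6 weeks. The design text gives 2 animals per group, no age was found in the labels, and nothing states which libraries are separate animals. The p-values therefore measure the spread between these libraries, which may be technical.

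p53 is a transcription factor that is made all the time and kept low because the ubiquitin ligase MDM2 marks it for destruction by the proteasome. Damage or stress interrupts this loop, and p53 then induces genes that halt the cell cycle, repair DNA or start apoptosis, and Mdm2 itself, which closes the loop. The RNA level of Trp53 says little about the activity of the protein, so the induced genes are the usual readout in RNA. Several of them, Btg2 and the Gadd45 genes in particular, are also induced without p53 by cytokines, feeding and growth signals in liver.

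A p53 response element is built of paired decamers, and the promoter sequences below show where a match to the p53 decamer lies near the start of genes whose values are given below. RefSeq promoter windows of GRCm38.p6, from 250 bases before to 50 after a start, were found for 9 of the 10 genes, with 10 windows between them. There were more windows than genes, so each distance below is from the start of the window shown. For Cdkn1a that window ran from 29090729 to 29091028. The p53 decamer, which reads the same on both strands, matched in 6 of the 9 genes (Trp53, Cdkn1a, Mdm2, Gadd45a, Ccng1 and Bax), and in 8.36% of all 32851 windows. A pair of decamers at most 13 bases apart was present in 1 of the 9, Cdkn1a, and in 0.0731% of all windows. In Btg2 the decamer did not match in this window, while the cAMP response element TGACGTCA, the same on both strands and found in 1.79% of windows, did. A CCAAT box on either strand was present in 7 of the 9 genes and in 37.4% of windows. Capitals mark the decamer in the first 4 stretches and the cAMP response element in the last, all written 5′ to 3′ on the gene's strand.
Cdkn1a, chr17:29090866-29090975, plus strand, decamers beginning 73 and 51 bases before the start: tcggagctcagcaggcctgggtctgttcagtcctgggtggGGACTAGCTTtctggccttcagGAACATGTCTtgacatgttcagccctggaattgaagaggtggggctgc
Mdm2, chr10:117710895-117710984, minus strand, 186 bases before the start: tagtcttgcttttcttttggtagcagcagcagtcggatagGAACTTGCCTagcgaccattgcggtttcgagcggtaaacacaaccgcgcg
Ccng1, chr11:40755422-40755511, minus strand, 185 bases before the start: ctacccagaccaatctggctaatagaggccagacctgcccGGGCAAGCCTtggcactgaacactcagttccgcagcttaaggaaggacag
Bax, chr7:45467050-45467139, minus strand, 201 bases before the start: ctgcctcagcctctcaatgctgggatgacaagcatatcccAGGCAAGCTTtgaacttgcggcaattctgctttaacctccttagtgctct
Btg2, chr1:134079274-134079361, minus strand, 166 bases before the start: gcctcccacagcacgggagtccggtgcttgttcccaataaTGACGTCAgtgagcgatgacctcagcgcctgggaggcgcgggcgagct
A match is a string of letters and not a measured binding site.

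Some properties of the libraries touch every value below. The values are FPKM, reads scaled by transcript length and library depth, and they summed to between 993264 and 1247789 per library. Absolute depth is unknown. The spacing of the lowest values, in 12 to 22 genes per library, put the depths between 0.853 and 1.27 times that of vehicle 1. Hepatocyte markers were abundant throughout, with 17654 to 47971 FPKM of Alb, the albumin gene. Treated libraries were low in most genes: the median log2 difference from the vehicle mean, over all genes tested, was -0.74 in ONX-0914 1, -0.38 in ONX-0914 3 and -0.79 in ONX-0914 4. ONX-0914 1 and 4 correlated at 0.976 with each other, on log2 values, and at 0.946 and 0.954 with ONX-0914 3, which stood apart and is left out or taken alone where it matters. ONX-0914 3 correlated about as closely with vehicle 1, 2 and 4, at 0.949, 0.958 and 0.950. For ONX-0914 1 and 4 the correlations with vehicle libraries were 0.906 to 0.932. With the tested genes in 4 equal classes by transcript length, the class of longest transcripts was lower than the shortest by a median log2 difference of -0.93, -0.25 and -0.99 in ONX-0914 1, 3 and 4. Results are therefore given as deposited and also scaled by median ratio, in which each library is divided by the median ratio of its genes to their geometric means. Scaling moved the median log2 fold change of all genes from -0.64 to -0.012.

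Bax, which encodes a pore-forming activator of apoptosis, was the 1 gene of the 10 that rose, and Mdm2 and Ccng1 fell. The other 7 genes did not pass the test. Calls were made with limma on log2(FPKM + 1) at a Benjamini-Hochberg adjusted p under 0.05 over all genes tested, a scale on which the change of low genes is understated. As background, 2.56% of all genes tested were called higher and 43.5% lower, so 2 lower calls of 10 lie under the share of the whole transcriptome. The median log2 fold change of the 10 genes was -0.39, against -0.64 for all genes. Scaled by median ratio, Bax was again the 1 gene called higher and none was called lower (limma; none at an unadjusted p under 0.05 either), where 13.8% of all genes were higher and 14.2% lower. FPKM ranges of the groups did not overlap for these same 3 genes, Bax upward and Mdm2 and Ccng1 downward, against 4.93% of all genes upward and 53.5% downward.

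**Figure D1:**
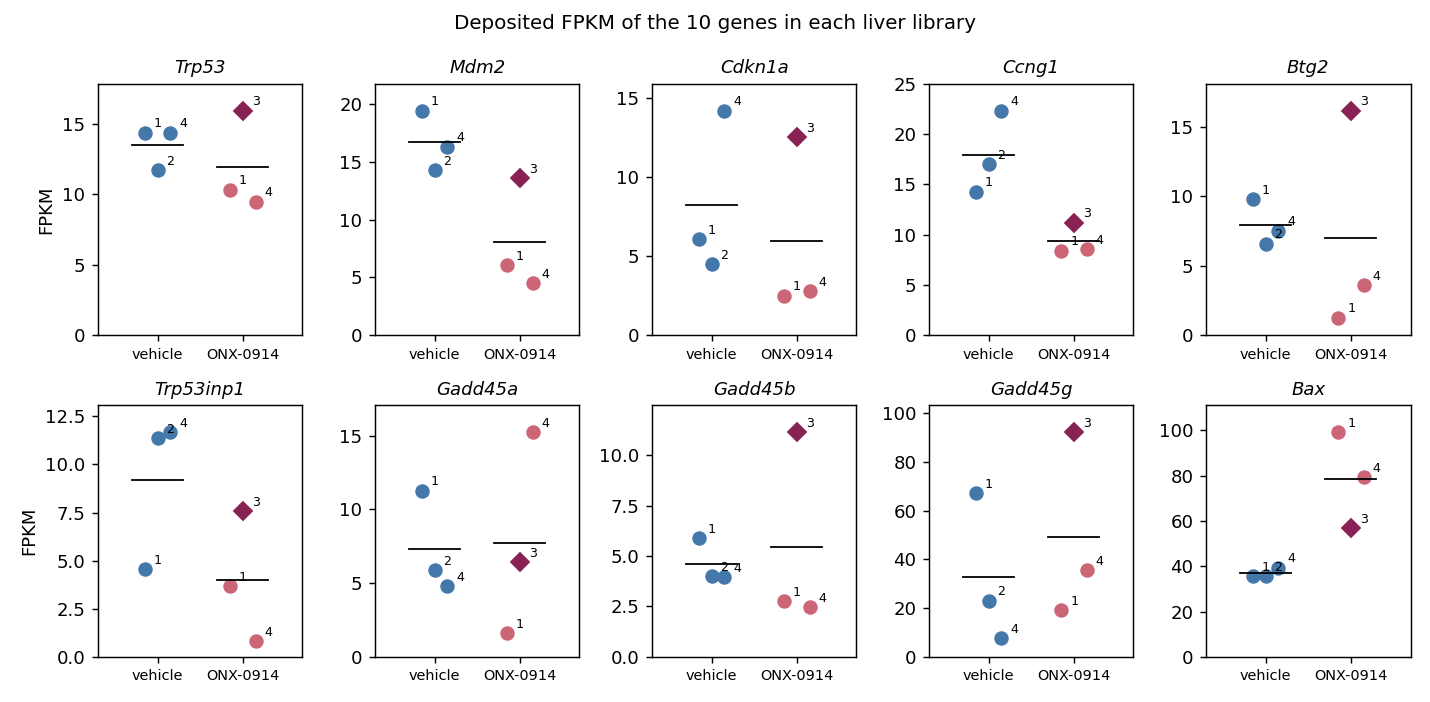
Deposited FPKM of each of the 10 genes, on a linear axis from 0, in the 3 vehicle libraries (blue) and the 3 ONX-0914 libraries (red, ONX-0914 3 as a dark diamond), numbered by library, with group means as lines. The groups do not overlap for Bax, Mdm2 and Ccng1, and ONX-0914 3 lies above the other treated libraries in every panel except Gadd45a and Bax.

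Trp53 itself, on chromosome 11 from 69580359 to 69591873 of GRCm38, was at 14.4, 11.7 and 14.4 FPKM in vehicle libraries 1, 2 and 4 and at 10.3, 15.9 and 9.45 in ONX-0914 1, 3 and 4. ONX-0914 1 and 4 were below every vehicle library and ONX-0914 3 was above, so the groups overlapped. The log2 fold change was -0.19 (limma SE 0.26, adjusted p = 0.56). Its sign depended on the scaling. By median ratio Trp53 was at 10.3, 8.75 and 11.2 in vehicle 1, 2 and 4. It was at 14.8, 16.6 and 14.1 in ONX-0914 1, 3 and 4, without overlap. The log2 fold change was then 0.55 (limma SE 0.20, adjusted p = 0.0742) and did not pass. So scaled, 13.8% of all genes were called higher, and the share of all genes without overlap was not computed.

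Mdm2, the ubiquitin ligase gene on chromosome 10 from 117688875 to 117710758, was at 19.5, 14.3 and 16.3 FPKM in vehicle libraries 1, 2 and 4 and at 6.04, 13.6 and 4.50 in ONX-0914 1, 3 and 4. All treated libraries lay below all vehicle libraries, ONX-0914 3 by less than 1 FPKM. The mean went from 16.7 ± 2.60 to 8.04 ± 4.86 FPKM (SD, n = 3 each), a log2 fold change of -1.09 (limma SE 0.36, adjusted p = 0.0347). After median ratio scaling the difference was -0.37 (adjusted p = 0.343), and ONX-0914 3 then reached 14.1, above the vehicle libraries at 10.7 to 13.9. Scaled, ONX-0914 1 and 4 stayed below the vehicle libraries, at 8.65 and 6.72. By median ratio without ONX-0914 3, Mdm2 was called lower (-0.635, limma adjusted p = 0.0292). As deposited, Mdm2 did not pass without vehicle 1, 2 or 4 (-0.98, -1.19 and -1.10, limma adjusted p = 0.123, 0.0698 and 0.0887) or without ONX-0914 1 or 4 (-0.97 and -0.79, adjusted p = 0.0988 and 0.121). Without ONX-0914 3 it was then at -1.50 (adjusted p = 0.000487).

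Among the genes of p53's control, Mdm4, a relative of MDM2 that silences p53, was not called (log2 fold change -0.65, limma adjusted p = 0.179), nor was Ppm1d, a phosphatase gene that p53 induces and that switches p53 off (-0.15, adjusted p = 0.695). Wrap53, the neighbour of Trp53, was at 2.20 to 4.18 FPKM with vehicle and 2.85 to 3.40 with ONX-0914 (0.10, adjusted p = 0.76). Of 22 tested regulators of p53, 7 fell and none rose (limma; 1 rose at an unadjusted p under 0.05), with a median log2 fold change of -0.37, where 43.5% of all genes were lower. The lower count was 0 without vehicle 1, vehicle 4 or ONX-0914 4, 1 without vehicle 2, 2 without ONX-0914 1 and 13 without ONX-0914 3. All 10743 genes gave 2590, 2966 and 3025 lower without vehicle 1, vehicle 4 and ONX-0914 4. They gave 2840, 3197 and 6514 (60.6%) lower without vehicle 2, ONX-0914 1 and ONX-0914 3. The falls included Usp7 and Usp10, which encode enzymes that remove ubiquitin from p53 or MDM2 (-1.29 and -1.17, limma adjusted p = 0.0143 and 0.0214), the acetyltransferase gene Ep300 (-0.81, adjusted p = 0.038) and the checkpoint kinase gene Chek2 (-0.72, adjusted p = 0.0214). Scaled by median ratio none of the 22 fell (limma; 1 at an unadjusted p under 0.05), 3 rose, and the median was 0.19. Among all genes 14.2% were then lower and 13.8% higher.

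Cdkn1a encodes p21, the inhibitor of cyclin-dependent kinases through which p53 stops division, and lies on chromosome 17 from 29090976 to 29100727. It was at 6.06, 4.47 and 14.2 FPKM in vehicle libraries 1, 2 and 4 and at 2.49, 12.5 and 2.79 in ONX-0914 1, 3 and 4. One library in each group, vehicle 4 and ONX-0914 3, was high, and the groups overlapped. The log2 fold change was -0.57 (limma SE 0.56, adjusted p = 0.41), and 0.077 scaled by median ratio (adjusted p = 0.92). Without ONX-0914 3 Cdkn1a passed, at -1.20 (limma adjusted p = 0.0241), though vehicle 4 alone then lay far above the rest. Scaled, ONX-0914 1 and 4 were at 3.57 and 4.16, inside the vehicle range of 3.35 to 11.1.

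Ccng1 encodes cyclin G1, a p53-induced protein that acts on MDM2 through a phosphatase, on chromosome 11 from 40748552 to 40755311. Its values of 14.3, 17.0 and 22.3 FPKM in vehicle libraries 1, 2 and 4 and of 8.39, 11.2 and 8.57 in ONX-0914 1, 3 and 4 did not overlap. The mean went from 17.9 ± 4.10 to 9.38 ± 1.57 FPKM (SD, n = 3 each), a log2 fold change of -0.85 (limma SE 0.26, adjusted p = 0.0247). The treated libraries lay within 3 FPKM of each other. After scaling they were at 12.0, 11.6 and 12.8, within the vehicle values of 10.2 to 17.5, and the log2 fold change was -0.11 (adjusted p = 0.746). The call was lost without vehicle 2 or 4 (-0.87 and -0.69, limma adjusted p = 0.0795 and 0.115) or ONX-0914 1 or 4 (-0.78 and -0.80, adjusted p = 0.0641 and 0.0704).

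Btg2, an antiproliferative gene of the BTG and TOB family on chromosome 1 from 134075170 to 134079120, had treated libraries on both sides of vehicle. It was at 9.78, 6.59 and 7.51 FPKM in vehicle libraries 1, 2 and 4 and at 1.25, 16.2 and 3.59 in ONX-0914 1, 3 and 4. ONX-0914 1 and 4 lay under all vehicle libraries and ONX-0914 3 over all of them. Over the 6 libraries the log2 fold change was -0.66 (limma SE 0.62, adjusted p = 0.393), without ONX-0914 3 it was -1.46 (adjusted p = 0.00375), and in ONX-0914 3 alone against vehicle it was 0.96 (adjusted p = 0.0252). The last fit has 1 treated library, whose spread is taken to be that of the vehicle libraries. Under median ratio scaling, ONX-0914 4 was at 5.36, inside the vehicle range, while ONX-0914 1 at 1.79 and ONX-0914 3 at 16.8 stayed outside it.

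The 3 Gadd45 genes encode small stress-induced proteins that bind p21, PCNA and the kinase MTK1 (the product of Map3k4), and they did not move together. Gadd45a, the member that p53 induces, on chromosome 6 from 67035096 to 67037457, was at 11.3, 5.89 and 4.80 FPKM in vehicle libraries 1, 2 and 4 and at 1.60, 6.42 and 15.2 in ONX-0914 1, 3 and 4. The lowest and the highest of all 6 values were both in treated libraries, and the log2 fold change was -0.22 (limma SE 0.59, adjusted p = 0.777). Gadd45b, induced by NF-kB and TGF-beta, on chromosome 10 from 80930073 to 80932204, was at 5.88, 4.01 and 3.96 FPKM in vehicle libraries 1, 2 and 4 and at 2.75, 11.1 and 2.46 in ONX-0914 1, 3 and 4, with ONX-0914 1 and 4 below all vehicle libraries and ONX-0914 3 above, as for Btg2. Its log2 fold change was -0.039 (SE 0.46, adjusted p = 0.948), -0.62 without ONX-0914 3 (adjusted p = 0.0311) and 1.13 in ONX-0914 3 alone (adjusted p = 0.0168).

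Gadd45g, the highest of the 3 on the FPKM scale in all 6 libraries, lies on chromosome 13 from 51846678 to 51848468. It was at 67.2, 23.02 and 7.72 FPKM in vehicle libraries 1, 2 and 4 and at 19.2, 92.1 and 35.6 in ONX-0914 1, 3 and 4. The vehicle libraries alone spanned 7.72 to 67.2, and the log2 fold change of 0.76 (limma SE 0.73, adjusted p = 0.404) was about as large as its error. Mapk14, the p38 kinase gene downstream of GADD45 and MTK1, fell, with a log2 fold change of -2.16 (SE 0.42, adjusted p = 0.00455) and -1.45 scaled by median ratio (adjusted p = 0.0214). Of 15 tested genes of the p38 and JNK kinases around GADD45, 9 fell and none rose (limma; none at an unadjusted p under 0.05), with a median of -1.15, where 43.5% of all genes were lower. With the length trend removed 1 of the 15 fell, where 11.7% of all genes were lower. Mapkapk2, a kinase that p38 activates, Map2k6, a kinase that activates p38, and the JNK gene Mapk8 were at -1.68, -1.38 and -1.36 (adjusted p = 0.0101, 0.0051 and 0.00828). After median ratio scaling 2 fell, Mapk14 and Mapk8, 1 rose, and the median was -0.50, where 14.2% of all genes were lower and 13.8% higher.

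Bax, on chromosome 7 from 45461697 to 45466898, was at 35.7, 35.7 and 39.5 FPKM in vehicle libraries 1, 2 and 4 and at 99.2, 56.8 and 79.4 in ONX-0914 1, 3 and 4. The vehicle libraries lay within 4 FPKM of each other and every treated library was above them, ONX-0914 3 least. The mean went from 37.0 ± 2.17 to 78.4 ± 21.2 FPKM (SD, n = 3 each), 2.12 times as high, a log2 fold change of 1.03 (limma SE 0.24, adjusted p = 0.00876). Median ratio scaling gave 1.82 (adjusted p = 0.0106), 1.11 with the trend over transcript length removed from each library (adjusted p = 0.0101), 1.24 without ONX-0914 3 (adjusted p = 0.000459) and 0.61 in ONX-0914 3 alone (adjusted p = 0.0352). Bax passed in each of the 15 other settings tried, with adjusted p between 0.000459 and 0.0395.

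Trp53inp1, a p53-induced nuclear protein gene that acts in stress signalling and autophagy, lies on chromosome 4 from 11156431 to 11174379. It was at 4.56, 11.4 and 11.7 FPKM in vehicle libraries 1, 2 and 4 and at 3.66, 7.56 and 0.80 in ONX-0914 1, 3 and 4. ONX-0914 3 lay above vehicle 1, so the groups overlapped, and the log2 fold change of -1.20 (limma SE 0.55, adjusted p = 0.0985) did not pass. Without ONX-0914 3 it passed at -1.72 (adjusted p = 0.0116), and scaled by median ratio over the 6 libraries it was -0.59 (adjusted p = 0.423).

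Part of the exons of 3 of these genes is shared with another annotated gene: 19.1% of Gadd45a with E230016M11Rik and 7.68% of Cdkn1a with AC167363.2, both on the opposite strand, and 12.2% of Bax with Gm45808 on the same strand. No label says whether the counting used strand, and strand would not separate Bax from Gm45808. None of the overlapping genes was in the deposited matrix, and how reads in the shared parts were assigned is unknown.

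Each treated library was also set against the vehicle range. ONX-0914 1 had 8 of the 10 genes below all vehicle libraries and 1, Bax, above, where 72.4% of all genes tested were below and 15.3% above. ONX-0914 4 had 7 below and 2, Bax and Gadd45a, above, against 75.9% and 13.2%. ONX-0914 3 differed: 2 genes, Mdm2 and Ccng1, were below and 5 above, namely Trp53, Gadd45b, Gadd45g, Btg2 and Bax, against 64.6% and 14.8% of all genes. In ONX-0914 3 alone against vehicle limma called Gadd45b, Btg2 and Bax higher and no member lower (1 lower at an unadjusted p under 0.05), with 2.88% of all genes called higher and 27.9% lower. Without that library 1 member, Bax, was called higher and 6 lower (Cdkn1a, Mdm2, Gadd45b, Ccng1, Trp53inp1 and Btg2), with 6.89% of all genes higher and 60.6% lower. The count of lower members moved with each library left out: it was 0 without vehicle 2, vehicle 4, ONX-0914 1 or ONX-0914 4 (limma; 2, 1, 2 and 1 at an unadjusted p under 0.05), and 1, Ccng1, without vehicle 1. These fits called 2590 to 3197 of all 10743 genes lower.

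**Figure D2:**
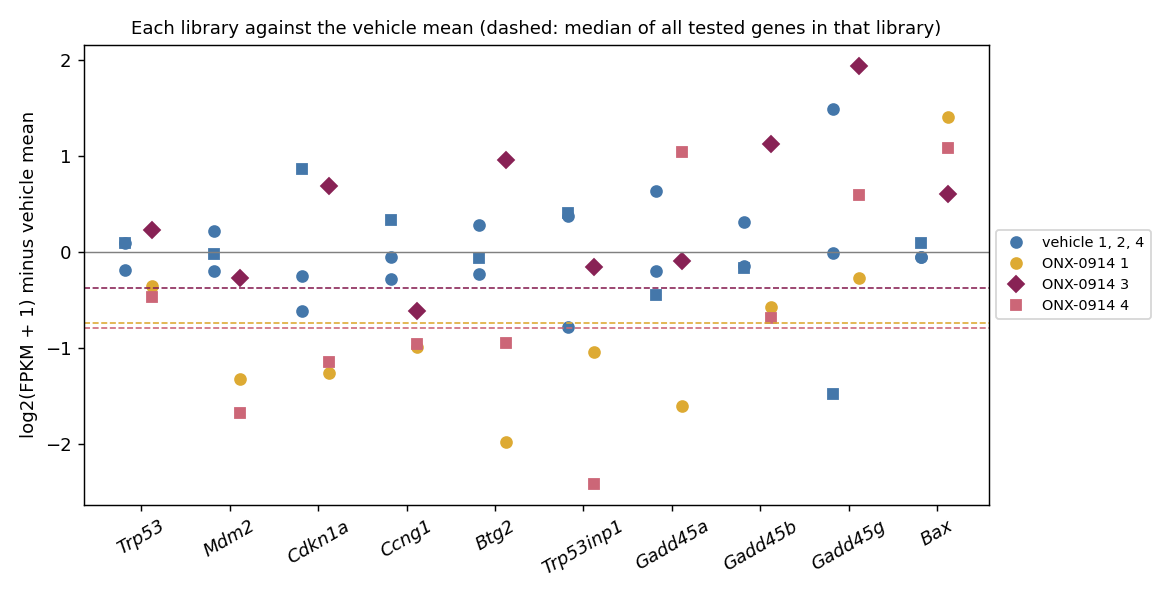
Difference of log2(FPKM + 1) from the vehicle mean, for each gene and library, with vehicle libraries in blue (library 4 as squares) and ONX-0914 1, 3 and 4 in yellow, dark red (diamonds) and pink (squares). Dashed lines give the median of all tested genes in each treated library, -0.74, -0.38 and -0.79. ONX-0914 3 lies above 0 for 6 genes, at 1.94 for Gadd45g and 1.13 for Gadd45b, where the other treated libraries lie lower.

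Genes of the immediate early response were looked at beside Btg2 and Gadd45b, which many of the same signals induce. Of 16 tested, 1, Nr4a1, fell (log2 fold change -0.62, limma adjusted p = 0.0349) and none rose (1 at an unadjusted p under 0.05). After median ratio scaling 2 rose and none fell (limma; none at an unadjusted p under 0.05). Over all genes 43.5% were lower and 2.56% higher as deposited, and 14.2% and 13.8% after scaling. Nr4a1 did not pass without vehicle 1 or 4 or ONX-0914 1 or 4 (limma adjusted p = 0.133, 0.122, 0.102 and 0.0659). In ONX-0914 3 alone the median log2 fold change of the 16 was 0.20, against -0.38 for all genes. Jun, Junb, Jund and Egr1, named after their values were seen, were higher there. Without ONX-0914 3 7 of the 16 fell and none rose (limma; none at an unadjusted p under 0.05), where 60.6% of all genes were lower. Junb was at 21.6, 17.3 and 11.6 FPKM in vehicle libraries 1, 2 and 4 and at 27.0, 86.5 and 20.6 in ONX-0914 1, 3 and 4. The summed FPKM of the 20 listed genes was 315 in ONX-0914 3, the highest of all 6 libraries, against 156 to 219 with vehicle and 111 in the lowest treated library. The summed level of 10 neutrophil markers was 188 FPKM in ONX-0914 3, the lowest of all 6 libraries, and reached 4840 in the highest treated library and 311 to 1890 with vehicle. Of 9 tested, none was called (limma; 1 lower at an unadjusted p under 0.05). Without ONX-0914 3 5 rose and 1 fell, where 6.89% of all genes were higher and 60.6% lower. No neutrophil marker was at 0 in all libraries, and the part of such cells in these values was not tested.

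Ratios of 2 genes within a library do not depend on how libraries are scaled, and 13 were computed, chosen after the values were seen. Mdm2 was at 1.35, 1.22 and 1.14 times the FPKM of Trp53 in vehicle 1, 2 and 4 and at 0.586, 0.852 and 0.476 times in ONX-0914 1, 3 and 4. The ratio of Ccng1 to Trp53 was 0.994 to 1.56 with vehicle and 0.702 to 0.907 with ONX-0914, also without overlap. Such a difference was common, since the ratio to Trp53 was lower without overlap for 46.7% of all genes tested and higher for 3.03%. With the length trend removed, Mdm2 was again lower relative to Trp53 in 3 of 3 treated libraries, while for Ccng1 the groups overlapped. The share of all genes was not computed for ratios with that trend removed. Trp53 itself was then above the vehicle mean in ONX-0914 1, 3 and 4, by 0.17, 0.56 and 0.077 on the log2 scale. Bax was at 2.49, 3.06 and 2.75 times Trp53 in vehicle 1, 2 and 4 and at 9.62, 3.56 and 8.40 times in ONX-0914 1, 3 and 4. Against Mdm2, Bax went from 1.84 to 2.50 times with vehicle to 16.4, 4.18 and 17.6 times in ONX-0914 1, 3 and 4, and 20.8% of all genes were higher against Mdm2 without overlap. Both ratios of Bax were higher without overlap after length trend removal too, again without a share of all genes to set beside them. For the other 6 genes the ratio to Trp53 overlapped between the groups. With 3 libraries against 3 the exact two-sided permutation test cannot give a p under 0.1. These 4 ratios reached that p, and so did the ratios of Bax to Bak1, Bcl2l1 and Mcl1. The Benjamini-Hochberg value over the 13 ratios was 0.186 for each of them. That p only restates that the groups did not overlap. Against Bak1, 41.4% of all genes were higher without overlap, and the share was not computed for Bcl2l1 or Mcl1. As the pairs were chosen after the values were seen, these p-values only describe the ratios. A ratio shows unequal change and not which of the genes moved.

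**Figure D3:**
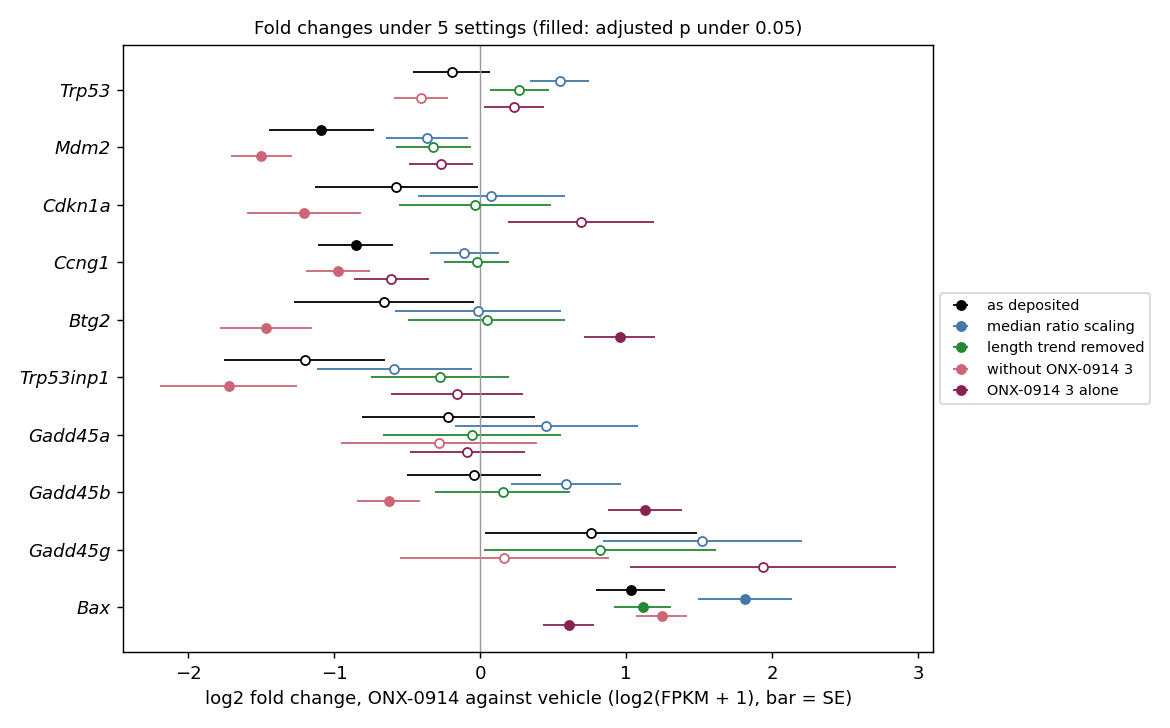
log2 fold change of each gene, ONX-0914 against vehicle, with its standard error, under 5 settings, filled where the limma adjusted p was under 0.05. Bax is filled and above 0 in all 5, from 0.61 to 1.82, while Mdm2 and Ccng1 are filled as deposited and without ONX-0914 3 but not scaled by median ratio.

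The apoptosis genes around Bax did not rise with it. Of 13 other tested BCL2 family genes, 8 fell and none rose (limma; none at an unadjusted p under 0.05), with a median log2 fold change of -1.02, where 43.5% of all genes were lower. The lower count was 3 without vehicle 1 or 2 and 4 without vehicle 4 or ONX-0914 4, and by median ratio without ONX-0914 3 4 fell and 2 rose. All 10743 genes gave 2590, 2840, 2966 and 3025 lower without vehicle 1, 2, 4 and ONX-0914 4. By median ratio without ONX-0914 3, 2806 of them were lower and 2829 higher. Bak1, which encodes the other pore-forming activator, was at 18.1, 16.7 and 14.4 FPKM in vehicle libraries 1, 2 and 4 and at 1.89, 8.54 and 6.85 in ONX-0914 1, 3 and 4 (-1.53, SE 0.42, adjusted p = 0.0171). Bcl2l1, which encodes the survival protein BCL-XL, fell as well (-1.33, SE 0.48, adjusted p = 0.0479), but was at 19.1 FPKM in ONX-0914 3, inside the vehicle range of 17.4 to 24.1. Bak1 did not pass without vehicle 1 or 2 (adjusted p = 0.0627 and 0.0525), and Bcl2l1 passed in 1 of 6 fits with a library left out, that without ONX-0914 3. Bcl2l13 and Bcl2l2 were at -1.63 and -1.39 (adjusted p = 0.00899 and 0.00367). By median ratio 2 of the 13 fell, Bcl2l13 and Bcl2l2, none rose (limma; 1 at an unadjusted p under 0.05) and the median was -0.29. So scaled, 14.2% of all genes were lower and 13.8% higher. Bax was at 1.97 to 2.74 times Bak1 with vehicle and at 52.5, 6.65 and 11.6 times in ONX-0914 1, 3 and 4, without overlap and with an exact permutation p of 0.1, as 41.4% of all genes were higher against Bak1 without overlap.

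Other known p53 targets were split. Of 32 tested, 17 fell and 3 rose (19 and 3 at an unadjusted p under 0.05), with a median log2 fold change of -0.80, where 43.5% of all genes were lower and 2.56% higher. Leaving out vehicle 1, 2 or 4 gave 8, 9 and 9 lower and 1, 2 and 2 higher, and leaving out ONX-0914 1 gave 13 and 1. Over all 10743 genes the same fits gave 2590, 2840, 2966 and 3197 lower and 92, 124, 111 and 141 higher. The 3 that rose were Plk3, Rps27l and Sertad1, the last 2 named because the count is small. Plk3, a stress-activated kinase gene, was at 9.31, 17.6 and 6.44 FPKM in vehicle libraries 1, 2 and 4 and at 44.6, 120.0 and 15.5 in ONX-0914 1, 3 and 4, so ONX-0914 4 lay inside the vehicle range (log2 fold change 2.00, SE 0.63, limma adjusted p = 0.0288). Rps27l, a ribosomal protein-like gene with a near-identical relative, Rps27, whose reads could be split, rose by 0.96 (adjusted p = 0.0252). Plk3 did not pass without vehicle 1 or 4 or ONX-0914 1 (limma adjusted p = 0.078, 0.0934 and 0.0756), nor Rps27l without vehicle 1 or 2 or ONX-0914 1 or 4 (0.0912, 0.0819, 0.0757 and 0.0801), and Sertad1 passed in each of these fits. Ddit4, a stress-induced inhibitor of mTOR signalling, ran at 19.4 to 24.9 FPKM with vehicle and 3.88 to 7.80 with ONX-0914 (-1.98, adjusted p = 0.00202). Slc19a2, a thiamine transporter gene, and Ei24, an autophagy gene, both fell by 1.96 (adjusted p = 0.00313 and 0.00405). With median ratio scaling 8 of the 32 fell, Ddit4, Slc19a2 and Ei24 among them, 5 rose, and the median was -0.28. On that scale 14.2% of all genes were lower and 13.8% higher.

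Of 19 other tested growth arrest genes, 14 fell and 1 rose, with a median of -1.11, where 43.5% of all genes were lower. The count of lower genes was 7 without vehicle 1, 2 or 4 or ONX-0914 1, 8 without ONX-0914 4 and 3 with the length trend removed. Those fits with a library left out called 2590 to 3197 of all 10743 genes lower. With the length trend removed, 11.7% of all genes were lower. Btg1, of the same family as Btg2, was at 55.2 to 80.4 FPKM with vehicle and 10.95 to 24.2 with ONX-0914 (log2 fold change -1.96, SE 0.30, limma adjusted p = 0.00218). Rbl2, which encodes the retinoblastoma relative p130, Foxo1, a transcription factor of the insulin response, and Gas2 were at -1.81, -1.55 and -1.55 (adjusted p = 0.00354, 0.0072 and 0.00211). The 1 that rose, named for that reason, was Btg3, a further family member, at 7.04 to 9.98 FPKM with vehicle and 19.3, 56.9 and 11.5 in ONX-0914 1, 3 and 4 (1.33, adjusted p = 0.0487). Btg3 did not pass without vehicle 1, 2 or 4 or ONX-0914 1 (limma adjusted p = 0.0928, 0.131, 0.0953 and 0.0801), nor with a pseudocount of 0.1, without the filter or without the variance trend (0.0566, 0.0919 and 0.0517), whereas Btg1 passed in each of these settings. Both Btg2 and Btg3 were at their highest in ONX-0914 3. Under median ratio scaling 6 of the 19 fell, Btg1, Rbl2, Foxo1 and Gas2 among them, and 1 rose. Among all genes 14.2% then fell and 13.8% rose.

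Proliferation genes were low in all livers. Mki67, the gene of the division marker Ki-67, was at 1.10, 1.47 and 2.08 FPKM in vehicle libraries 1, 2 and 4 and at 0.38, 0.57 and 0.98 in ONX-0914 1, 3 and 4, a change of -0.63 on the log2 scale (limma adjusted p = 0.0445). Of 25 tested, 11 fell and none rose (limma; none at an unadjusted p under 0.05), a share near the 43.5% of all genes, and the median was -0.63. The lower count was 5 or 6 without vehicle 1, 2 or 4 or ONX-0914 1, and Mki67 did not pass in those fits (limma adjusted p = 0.062, 0.109, 0.158 and 0.146). The same fits called 2590 to 3197 of all 10743 genes lower. Ccna2 and Ccnd1, cyclins of the S phase and of cell cycle entry, were at -1.41 and -1.35 (adjusted p = 0.0032 and 0.00828), and the replication helicase gene Mcm4 and the cyclin gene Ccnd3 at -0.93 and -0.92 (adjusted p = 0.0102 and 0.0485), of which Ccnd3 passed only without ONX-0914 3 among the fits with 1 library left out, and Mcm4 in all but that without vehicle 1. After median ratio scaling 2 fell, Ccna2 and Ccnd1, and 3 rose, where 14.2% of all genes were lower and 13.8% higher. Mki67 was then at -0.24 (limma adjusted p = 0.49).

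**Figure D4:**
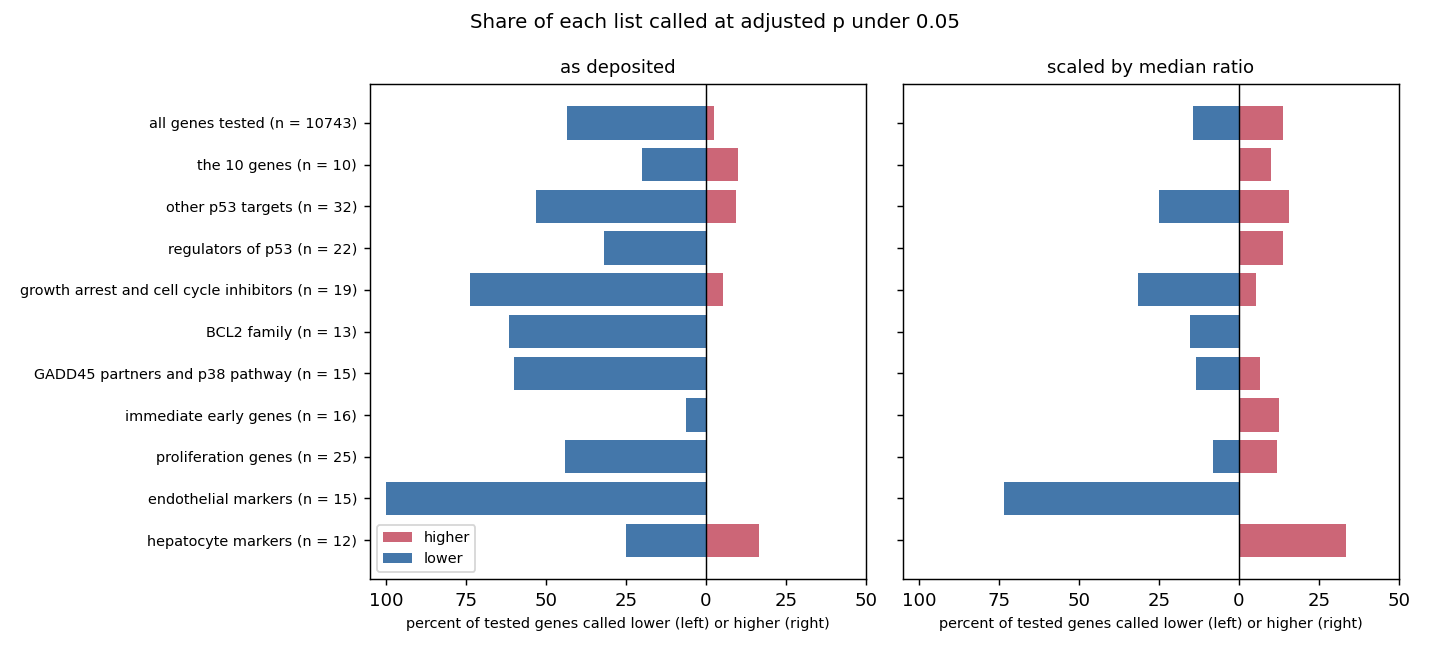
Percent of the tested genes of each list called lower (blue, left) or higher (red, right) by limma, as deposited and scaled by median ratio, with the number tested in brackets. Of the 10 genes, 2 are lower and 1 is higher as deposited, against 43.5% and 2.56% of all genes tested. None of the 10 is lower after scaling, where 14.2% of all genes are.

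Markers of other cells moved beside these lists. As background, 43.5% of all genes tested were lower and 2.56% higher as deposited, and 14.2% and 13.8% scaled by median ratio. All 15 tested endothelial markers fell, 11 scaled by median ratio, and the summed FPKM of the 16 listed was 260 to 264 with vehicle and 40.1 to 75.8 with ONX-0914, with none at 0 in all libraries. Of 11 Kupffer cell and macrophage markers 8 fell, 4 after scaling, and of 12 stellate cell markers 8 fell, while after scaling 5 fell and 1 rose. Their sums were 1160 to 1780 FPKM and 467 to 527 with vehicle, and 610 to 999 and 262 to 464 with ONX-0914. Of 5 tested cholangiocyte markers 2 fell and none rose, while after scaling 1 rose and none fell (limma; 1 at an unadjusted p under 0.05). None of 5 tested lymphocyte markers was called (limma; none at an unadjusted p under 0.05), while after scaling 2 rose. Of 12 hepatocyte markers 2 rose and 3 fell, after scaling 4 rose and none fell (limma; 2 at an unadjusted p under 0.05), and their summed level as deposited overlapped between the groups. In whole liver RNA fewer cells of a type and less RNA per cell cannot be told apart, and the part of the cell makeup in the values of the 10 genes was not tested.

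Fold changes of all tested genes differed by transcript length. Gadd45g (1071 bases in its longest coding transcript), Bax (1100), Gadd45a (1223) and Gadd45b (1284) were in the shortest of the 4 length classes, where the median log2 fold change was -0.17, 21.4% were called lower and 6.26% higher. Trp53 (1867 bases), Cdkn1a (2080) and Btg2 (2743) lay in the next, with a median of -0.58 and 40.7% lower. Mdm2 (3145 bases) and Ccng1 (3512) lay in the third, with a median of -0.80 and 53.2% lower, and Trp53inp1 (5404) in the longest, with a median of -0.88 and 60.2% lower. Set against genes of like length, the fold changes of Mdm2 at -1.09 and of Ccng1 at -0.85 were within their standard errors of the class median, and that of Bax at 1.03 was above it by more than 4 of its standard errors. With the length trend removed, Bax was called higher and no member lower (limma; none at an unadjusted p under 0.05), where 9.61% of all genes were higher and 11.7% lower. Ccng1 was then at -0.023 (adjusted p = 0.953) and Mdm2 at -0.32 (adjusted p = 0.394).

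**Figure D5:**
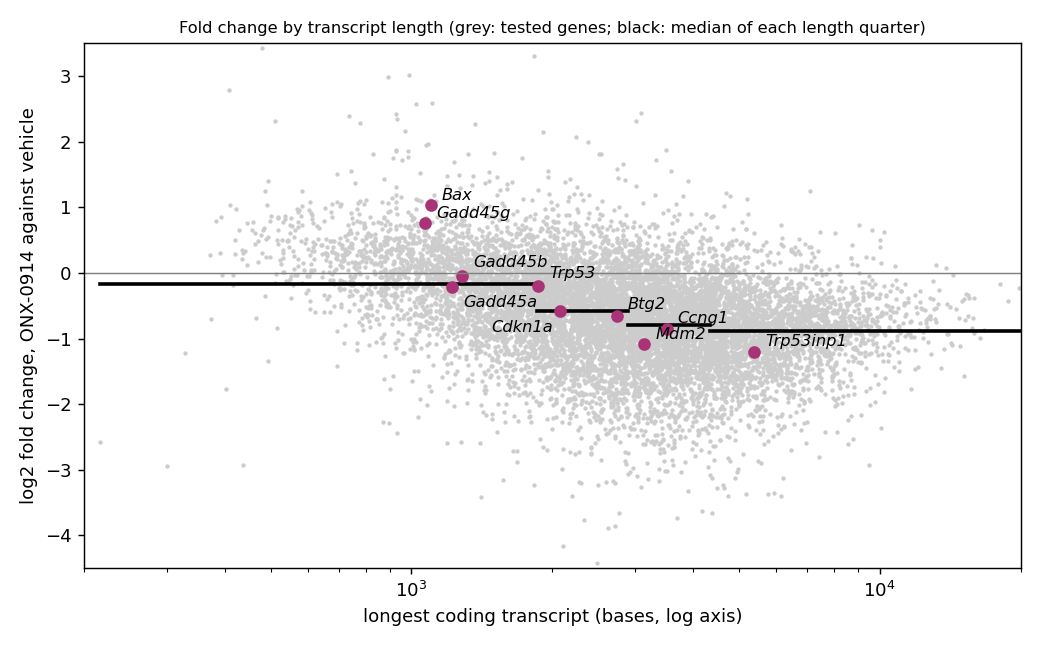
log2 fold change, ONX-0914 against vehicle, by the length of the longest coding transcript on a log axis, for the tested genes (grey, a few of them outside the axes) and the 10 genes (purple), with the median of each length class as a black line at -0.17, -0.58, -0.80 and -0.88. Bax and Gadd45g lie above 0, and the other 8 genes below.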

How the data were processed

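RNA was extracted from liver with TRIzol, and mRNA was enriched, fragmented and sequenced, per the labels' protocols. The submitters' processing notes list HISAT2 2.0.1 and featureCounts 1.6.0 beside FastQC 0.11.5, cutadapt 1.11 and edgeR, and GRCm38 and mm10, without roles. The authors deposited 1 matrix of FPKM, with 2 decimals. Its unit was inferred from the values, and no source used here gives the annotation or scaling. Columns were matched to samples by title.

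Genes above 1 FPKM in at least 3 libraries (10743) were tested on log2(FPKM + 1) with limma 3.58.1 (R 4.3.3), using a trend of variance with level and no block, and p-values were adjusted by Benjamini-Hochberg over all genes tested. The median ratio was taken over tested genes above 0 in every library. The length trend was a lowess curve (span 0.3) of each library's difference from the vehicle mean against the longest coding transcript in GENCODE M21, which 97.6% of tested genes had. These steps were tested on simulated data in which both groups were given the spread of the vehicle libraries. A wider spread between treated libraries was not simulated. By rule the text names all 10 genes, up to 4 called genes of each of 14 lists with the largest changes, and Mdm4, Ppm1d, Wrap53 and Mki67, and genes of the marker lists are given as counts. The genes and lists were chosen with earlier results of these data known. The ratios, also with the length trend removed, and median ratio scaling without ONX-0914 3 were added after the data were seen.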

Additional observations from a re-analysis of the deposited data

How the results depend on the processing

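Of the 15 other settings, Bax was called higher in all, with log2 fold changes of 0.61 to 2.19. The count of lower genes among the 10, 2 as deposited, was 0 by median ratio, by quantile normalization and after length trend removal. It was 1, Ccng1, with no filter on low values and 1, Mdm2, by median ratio without ONX-0914 3. It was 0 to 6 when 1 library was left out, 6 without ONX-0914 3. ONX-0914 3 alone gave 3 higher. Over all genes, 275 higher and 4673 lower became 1481 and 1528 by median ratio, 1118 and 1334 by quantile normalization, 1007 and 1222 after length trend removal, and 2829 and 2806 by median ratio without ONX-0914 3. Leaving out 1 library gave 92 to 740 higher and 2590 to 6514 lower, and ONX-0914 3 alone 2992 lower. Signs changed for genes that were not called as deposited. Trp53 was at 0.55, 0.51 and 0.27 by median ratio, quantile normalization and length trend removal, at 0.23 in ONX-0914 3 alone and at 0.48 by median ratio without it. Gadd45b was at 0.59, 0.79, 0.16 and 1.13 in the first 4 of these and at 0.13 in the last, and from -0.62 to 0.28 with 1 library left out, above 0 without vehicle 1, ONX-0914 1 or ONX-0914 4. Gadd45a was at 0.45 and 0.54 by median ratio and quantile normalization, 0.52 by median ratio without ONX-0914 3, and from -0.84 to 0.48 with 1 library left out, above 0 without vehicle 1 or ONX-0914 1. Cdkn1a was at 0.077 and 0.24 by median ratio and quantile normalization and 0.69 in ONX-0914 3 alone. Btg2 was at 0.14, 0.045 and 0.96 by quantile normalization, length trend removal and ONX-0914 3 alone, and from -1.46 to 0.0027 with 1 library left out, the highest without ONX-0914 1. With the replicate number as a block 6 of the 10 were lower. Over all 10743 genes tested, 5973 were then lower and 604 higher. The numbers 1 and 4 are shared by the groups, their deviations correlated at 0.00113 and 0.133, and the block leaves only those 2 pairs, without ONX-0914 3. Absolute depth is unknown, which limits statements on values near 0.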
